A study of Mus musculus with 4 samples.

Results

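The genes of the m6A writer complex were examined in alveolar type II (AT2) cells, the surfactant-producing progenitors of the alveolus, from mice with 2 floxed copies, or 1, of the m6A demethylase gene Alkbh5. The members were taken by gene symbol from the deposited table of read counts. They were Mettl3, Mettl14, Wtap, Virma, Rbm15, Rbm15b, Zc3h13 and Cbll1, which form the messenger RNA writer, and Mettl16 and Mettl5, which methylate other RNAs outside that complex. All 10 were found among the 40092 genes of the table, and all 10 had enough reads to be tested, as did 16661 genes in all. The table holds 4 RNA-seq libraries, 2 from control mice (Ctrl, Alkbh5flox/+) and 2 from knockout mice (A5-CKO, Alkbh5flox/flox). Every mouse also had Sftpc-CreERT2, in which a surfactant gene promoter drives a recombinase that tamoxifen switches on, together with Rosa26-mTmG, a reporter that makes recombined cells green. All mice received tamoxifen and bleomycin, and the green cells were sorted by FACS on day 14 after injury. The controls keep a floxed Alkbh5 allele that the same recombinase can delete, so both groups carry a deletion, in one copy or in both.

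N6-methyladenosine (m6A) is the most abundant internal mark of messenger RNA, and it is added in the nucleus while the transcript is made. METTL3 is the enzyme that transfers the methyl group, and METTL14 is its partner, which has no activity of its own but holds the RNA in place. A second group of proteins brings this pair to its targets. WTAP tethers it to nuclear speckles, VIRMA is the large scaffold that steers methylation toward the end of the coding sequence, RBM15 and its paralog RBM15B bind RNA and recruit the enzyme to it, ZC3H13 keeps the complex in the nucleus, and CBLL1 (also called HAKAI) is a ubiquitin ligase that stabilizes it. METTL16 methylates the U6 small nuclear RNA and the mRNA of Mat2a, and METTL5 methylates the RNA of the small ribosomal subunit. ALKBH5 removes the mark that METTL3 writes.

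The libraries held between 18144865 and 20811757 counts. Values below are counts scaled to library size (CPM) after scaling with edgeR's TMM factors, which ranged from 0.860 to 1.13, and a count of 3, taken as the limit of detection, corresponds to at most 0.177 CPM. Where a pair of values is given for a genotype, replicate 1 comes before replicate 2. Alkbh5 had 81.7 and 152 CPM in the Ctrl libraries, against 19.3 and 36.6 CPM in the A5-CKO libraries, which goes the way the labels say. All 10 AT2 markers examined were detected, and their summed level was 55622 and 79644 CPM in the Ctrl libraries and 41656 and 33731 CPM in the A5-CKO libraries. The 4 club cell markers summed to 2868 and 2733 CPM in Ctrl and to 1962 and 1318 CPM in A5-CKO, lower in both A5-CKO libraries like the AT2 markers. The 8 alveolar type I (AT1) markers summed to 1474 and 1294 CPM in Ctrl and to 1494 and 1286 CPM in A5-CKO. Of the 6 with enough reads to be tested, 5 had a log2 fold change above 0, where 49.1% of all genes did. The other, Aqp5, was at -0.79. Several other sums differed between libraries of 1 genotype. The 5 ciliated cell markers summed to 140 and 132 CPM in Ctrl and to 150 and 55.7 CPM in A5-CKO. The 6 B and plasma cell markers summed to 2138 and 357 CPM in Ctrl and to 502 and 2294 CPM in A5-CKO. The 6 transitional epithelial markers summed to 2917 and 1228.5 CPM in Ctrl and to 1705 and 3021 CPM in A5-CKO. The 8 macrophage and leukocyte markers summed to 669 and 200 CPM in Ctrl and to 242 and 774 CPM in A5-CKO, and the 6 fibroblast markers to 393 and 145 CPM against 93.2 and 1014 CPM, with none of these 14 genes at 0 in all libraries. The 6 endothelial markers summed to 76.8 and 142 CPM in Ctrl and to 86.0 and 132 CPM in A5-CKO. Of these 6, only Cldn5 was at 0 in every library. A5-CKO 1 had the lowest fibroblast sum and the highest Rbm15, and the part of these markers in the differences between genotypes was not tested. In bulk RNA, fewer cells of a type and less RNA per cell cannot be told apart. Genotypes were compared by the quasi-likelihood test of edgeR, with p-values adjusted by the Benjamini-Hochberg method over all genes tested, and with 2 libraries in each group 0.333 is the smallest two-sided p of an exact permutation test. Whether the libraries come from single mice or pools was not stated in the sources used here, so p-values measure only the spread between these libraries.

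The differences of the writer genes between genotypes were largest for the RBM15 pair. Rbm15 was higher in A5-CKO, with a fold of 2.46, and its paralog Rbm15b was lower, with a fold of 0.591. Zc3h13, Mettl14 and Mettl5 followed, with folds of 1.55, 1.45 and 1.44, and the other 5 lay between 0.912 and 1.11. No writer gene had an adjusted p under 0.05, as was the case for 0% of all genes tested. Alkbh5 itself, with a log2 fold change of -2.06, had an adjusted p of 0.528 in edgeR. Still, 1530 genes had an unadjusted p under 0.05 in edgeR. DESeq2 with its default filtering called 59 genes, none of them a writer gene. At an unadjusted p under 0.05 from edgeR there was 1 writer gene higher in A5-CKO (Rbm15), where 4.48% of all genes were, and 0 lower, where 4.71% of all genes were. The log2 fold change was above 0 for 6 of the 10, against 49.1% of all genes, and its median was 0.11, against -0.02 over all genes. Both A5-CKO libraries lay above both Ctrl libraries for 3 writer genes (Mettl14, Virma and Rbm15), where 20.3% of all genes did, and below both for 1 (Rbm15b), where 23.5% of all genes did. Read against these shares, the counts show nothing particular to the writer genes. With total counts in place of TMM factors, 7 writer genes lay above, as did 34.8% of all genes, and 1 below, as did 10.1%. With a GC and transcript length correction 2 lay above, where 14.9% of all genes did, and 5 below, where 24.8% did.

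**Figure D1:**
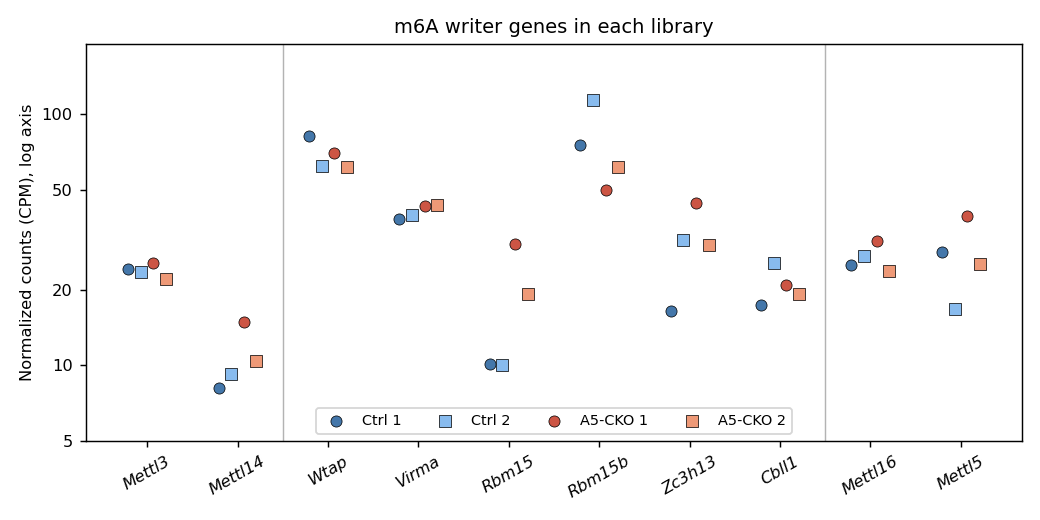
Normalized counts (CPM, log axis) of the 10 writer genes in each of the 4 libraries, with the catalytic pair on the left, the regulatory subunits in the middle and the enzymes of other RNAs on the right. Rbm15 stood at 10.2 and 10.1 CPM in the Ctrl libraries and at 30.5 and 19.2 CPM in the A5-CKO libraries, whereas the 4 points of Mettl3 lie together.

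Rbm15 showed the largest difference of the group. It lies on chromosome 3 from 107305511 to 107334460 (GRCm38.p6), on the minus strand, and its longest coding transcript has 2 exons. It had 172 and 173 counts in the Ctrl libraries, against 673 and 450 in the A5-CKO libraries. In normalized terms these were 10.2, 10.1, 30.5 and 19.2 CPM. The Ctrl libraries were nearly identical, both A5-CKO libraries were well above them, and the lower A5-CKO library exceeded the higher Ctrl library by 0.92 on the log2 scale. The log2 fold change was 1.30 (standard error 0.40), with an unadjusted p of 0.0154 and an adjusted p of 0.528 in edgeR, so the gene did not pass over all genes tested. With DESeq2, the tool the study names, Rbm15 had a log2 fold change of 1.32 with an adjusted p of 0.210. Rbm15 had an unadjusted p under 0.05 in 14 of 14 fits to the 4 libraries with edgeR, DESeq2 or limma. These fits reuse the same libraries, so they are not independent, and they do not include a crossed pairing of the replicates. The log2 fold change of Rbm15 ranged from 1.25 to 1.61 in them. Leaving out A5-CKO 1 lowered it to 0.92 with an unadjusted edgeR p of 0.119, and leaving out Ctrl 2 gave 1.24 with a p of 0.0523. In such fits 1 library stands for its genotype and is assumed to vary like those of the other. Slc16a4, a transporter gene on the opposite strand whose span overlaps that of Rbm15, had 18, 13, 70 and 46 counts in the same order of libraries, and it shares 0 exon bases with Rbm15 in GENCODE M21.

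Rbm15b was lower in A5-CKO. This single-exon gene lies on the minus strand of chromosome 9, from 106880928 to 106887075. It had 75.2 and 114 CPM in the Ctrl libraries, against 50.03 and 61.7 CPM in the A5-CKO libraries. Both A5-CKO libraries were below both Ctrl libraries, but the gap between the groups, 0.29 on the log2 scale, was smaller than the 0.60 between the Ctrl libraries themselves. The log2 fold change was -0.76 (standard error 0.33), with an unadjusted edgeR p of 0.0541 and an adjusted p of 0.528. It was -0.75 with the GC and length correction (unadjusted p = 0.0174 in edgeR), and -0.43 with total counts only. Without Ctrl 2, the library with the highest value, it was -0.47. Of its exon bases, 75 are shared with Dcaf1 on the opposite strand, and since whether counting used strand is not given in the sources used here, reads from such bases cannot be assigned with certainty.

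Within the pair, the balance of the paralogs differed between the genotypes more than their sum did. Reads of Rbm15 made up 11.9% of the reads of both genes in Ctrl 1 (95% exact binomial interval 10.3 to 13.7%) and 8.13% in Ctrl 2 (7.01 to 9.38%). In A5-CKO 1 and A5-CKO 2 the shares were 37.9% (35.6 to 40.2%) and 23.8% (21.9 to 25.8%). These intervals cover counting error only, and none of the Ctrl intervals reached those of A5-CKO. Rbm15b had 7.40 and 11.3 reads for each read of Rbm15 in the Ctrl libraries, and 1.64 and 3.21 in the A5-CKO libraries, a ratio 0.251 times that of Ctrl. The difference was -1.99 on the log2 scale, against standard deviations of 0.43 within Ctrl and 0.68 within A5-CKO (n = 2 each), and leaving out any one library gave values from -2.48 to -1.51. Such a ratio does not depend on the scaling of the libraries. Its exact two-sided permutation p was 0.333, the smallest that 2 against 2 libraries allow, and 0.667 after adjustment over the 6 ratios tested. The summed level of both genes was 85.4 and 124 CPM in Ctrl, against 80.5 and 80.9 CPM in A5-CKO, so that the A5-CKO libraries differed little from Ctrl 1 and lay below Ctrl 2.

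The start regions of this pair are shown because they are the paralogs with opposite differences. Each is the RefSeq window of 250 bases before and 50 after an annotated start (GRCm38.p6), written 5′ to 3′ on the strand of the gene. The Rbm15b window covers the 5′ end of its gene span, at 106887075. The Rbm15 window lies wholly inside its gene span, whose 5′ end is at 107334460, so the windows are not alike in position. The GC box (GGGCGG) and the CCAAT box (CCAAT), searched on both strands, are in capitals.
Rbm15, chr3:107333240-107333539, minus strand: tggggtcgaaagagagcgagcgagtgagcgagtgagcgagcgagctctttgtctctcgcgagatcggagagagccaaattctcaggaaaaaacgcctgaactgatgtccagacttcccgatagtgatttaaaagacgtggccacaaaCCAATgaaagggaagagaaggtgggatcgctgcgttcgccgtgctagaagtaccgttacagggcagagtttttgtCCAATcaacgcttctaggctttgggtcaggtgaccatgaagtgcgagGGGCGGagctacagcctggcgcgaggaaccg
Rbm15b, chr9:106887026-106887325, minus strand: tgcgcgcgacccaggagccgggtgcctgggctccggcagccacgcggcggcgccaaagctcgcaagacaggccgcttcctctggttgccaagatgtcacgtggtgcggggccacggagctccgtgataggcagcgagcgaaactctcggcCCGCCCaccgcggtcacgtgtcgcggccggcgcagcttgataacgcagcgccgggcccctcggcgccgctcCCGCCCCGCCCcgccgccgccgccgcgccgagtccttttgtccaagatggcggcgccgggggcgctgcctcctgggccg

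The window of Rbm15 held 2 CCAAT boxes, 1 GC box and 23 CpG dinucleotides. The window of Rbm15b held 0 CCAAT boxes, 3 GC boxes and 46 CpG dinucleotides. Of all 32851 RefSeq windows of this length, 35.7% held a GC box and 37.4% a CCAAT box, and the median number of CpG dinucleotides was 7. Windows were found for 8 of the 10 writer genes, 11 windows in all. The windows of Zc3h13 overlap one another, as do those of Wtap, so 1 site can be counted more than once. The 11 held from 17 to 48 CpG dinucleotides, so the shares over all windows are not matched for CpG number. None of the 11 held a TATA box (TATAAA), which 13.6% of all windows held, and 5 of them, of Cbll1, Mettl3, Mettl5 and Zc3h13, held the ETS core CCGGAAG, which 8.86% of all windows held. A match of letters is a description of the window and not evidence that a factor binds there.

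Mettl3, the enzyme, lies on the minus strand of chromosome 14 from 52294841 to 52308741. It had 24.1 and 23.6 CPM in the Ctrl libraries, against 25.6 and 22.0 CPM in the A5-CKO libraries. The 4 libraries overlapped and spanned a narrow range. Its log2 fold change was -0.0016 (standard error 0.33, unadjusted p = 0.996 in edgeR), and it ranged from -0.04 to 0.31 over the fits to all libraries, with values on both sides of 0. Of the exon bases of Mettl3, 933 are shared with Tox4 on the opposite strand, a gene with 1113, 1522, 1399 and 1990 counts in the same order of libraries. Mettl14, the RNA-binding partner, lies on the minus strand of chromosome 3 from 123368295 to 123385990. It had 8.16 and 9.25 CPM in Ctrl, against 14.8 and 10.4 CPM in A5-CKO. The groups did not overlap, but A5-CKO 2 exceeded Ctrl 2 by only 0.17 on the log2 scale, less than the 0.52 between the A5-CKO libraries. The fitted log2 difference was 0.54, with a standard error of 0.44 and an adjusted p of 0.674 in edgeR, and with the GC and length correction it was -0.09. The counts of Mettl14 were 138, 159, 328 and 243, and the counting error of the smallest is 8.51%.

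The balance within the pair leaned toward Mettl3 in every library. For each read of Mettl3 there were 0.338 and 0.393 reads of Mettl14 in Ctrl, against 0.580 and 0.472 in A5-CKO, a difference of 0.52 on the log2 scale (exact two-sided permutation p = 0.333, adjusted 0.667 over 6 ratios). Per kb of the longest coding transcript, 7.197 kb for Mettl14 and 2.025 kb for Mettl3, the mean ratio was 0.103 in Ctrl, against 0.147 in A5-CKO. A difference in the same direction was seen with each library left out, where it ranged from 0.37 to 0.67. With the GC and length correction, however, the fitted log2 fold change of Mettl14 (-0.089) was below that of Mettl3 (0.096).

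**Figure D2:**
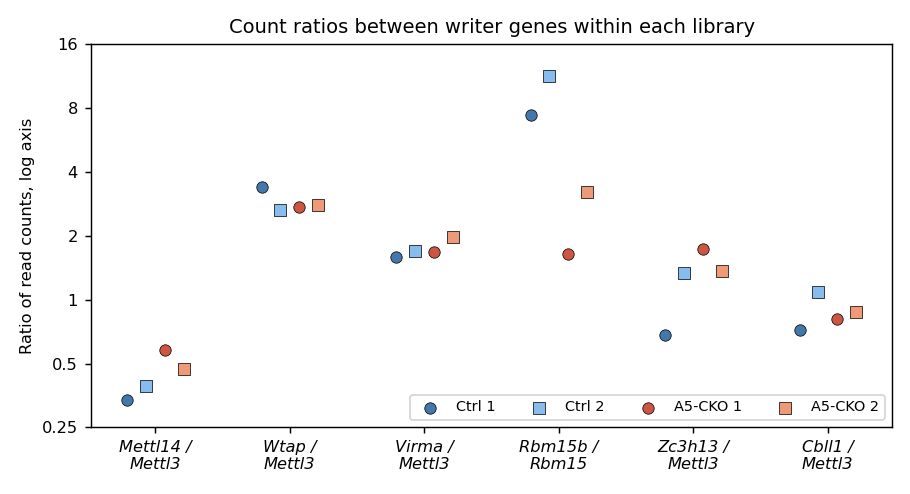
Ratio of read counts between writer genes within each library (log axis) for the 6 pairs compared, 4 points for each pair. The ratio of Rbm15b to Rbm15 was 7.40 and 11.3 in the Ctrl libraries and 1.64 and 3.21 in the A5-CKO libraries, whereas that of Wtap to Mettl3 lay between 2.64 and 3.39 and that of Virma to Mettl3 between 1.59 and 1.98.

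Among the scaffold proteins, Wtap and Virma differed by little between the genotypes. Wtap, the subunit that anchors the enzyme pair in nuclear speckles, lies on the minus strand of chromosome 17 from 12966799 to 12992543. It had 81.8 and 62.3 CPM in Ctrl, against 69.9 and 61.6 CPM in A5-CKO. The groups overlapped, and the log2 fold change was -0.13 (standard error 0.30, unadjusted p = 0.668 in edgeR). It was -0.58 with the GC and length correction (unadjusted p = 0.0433 in edgeR) and 0.18 with total counts only, so its size and direction depended on the processing. Virma, the largest subunit, lies on the plus strand of chromosome 4 from 11485958 to 11551143. It had 38.3 and 39.7 CPM in Ctrl, against 43.0 and 43.6 CPM in A5-CKO. Libraries of 1 genotype differed by at most 0.05 on the log2 scale, the smallest spread of any writer gene, and the gap between the genotypes was 0.11. The log2 fold change of Virma was 0.15 (standard error 0.29, unadjusted p = 0.625 in edgeR), and -0.29 with the correction. For each read of Mettl3, Virma had 1.59 and 1.69 reads in Ctrl, against 1.68 and 1.98 in A5-CKO, and Wtap had 3.39 and 2.64 in Ctrl, against 2.73 and 2.80 in A5-CKO. The exact two-sided permutation p of these ratios was 0.667 for Virma and 1 for Wtap.

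Zc3h13 varied most between the Ctrl libraries. Zc3h13, the subunit that keeps the complex nuclear, lies on the plus strand of chromosome 14 from 75284306 to 75344433. It had 16.4 CPM in Ctrl 1 and 31.4 CPM in Ctrl 2, against 44.2 and 30.2 CPM in the A5-CKO libraries. Ctrl 2 thus lay between the A5-CKO libraries, and the difference between the Ctrl libraries, 0.93 on the log2 scale, exceeded the log2 fold change of 0.64 (standard error 0.43, unadjusted p = 0.180 in edgeR). Leaving out Ctrl 2 gave 1.13, and leaving out Ctrl 1 gave 0.30. Cbll1, the ubiquitin ligase, lies on the minus strand of chromosome 12 from 31484829 to 31500676. It had 17.4 and 25.5 CPM in Ctrl, against 20.8 and 19.2 CPM in A5-CKO. Both A5-CKO values lay within the range of Ctrl, and the log2 fold change was -0.10 (standard error 0.37, unadjusted p = 0.796 in edgeR), with -0.65 after the GC and length correction and 0.23 with total counts only.

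**Figure D3:**
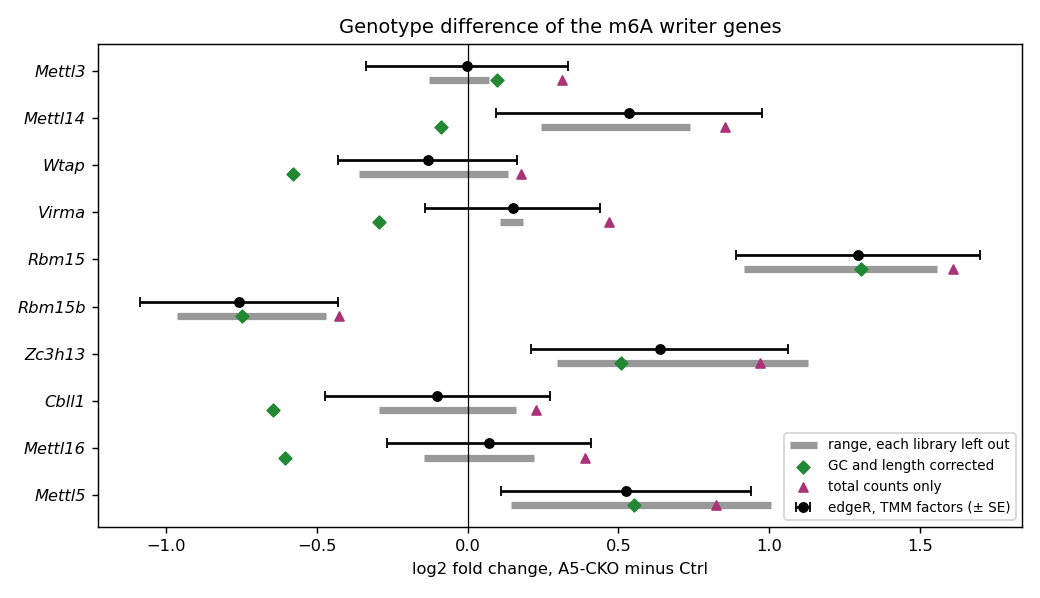
log2 fold change (A5-CKO minus Ctrl) of each writer gene from edgeR with TMM factors (black, bars ± standard error, 2 libraries in each group), with the range when each library is left out (grey), the value with total counts only (triangles) and the value corrected for GC content and transcript length (diamonds). Rbm15 stayed between 0.92 and 1.61 and Rbm15b between -0.96 and -0.43, whereas the points of Mettl3, Wtap, Virma, Cbll1, Mettl16 and Mettl14 fell on both sides of 0.

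Of the enzymes that methylate other RNAs, Mettl16 overlapped between the genotypes. It lies on the plus strand of chromosome 11 from 74770815 to 74826855. It had 25.1 and 27.3 CPM in Ctrl, against 31.1 and 23.9 CPM in A5-CKO, so the A5-CKO libraries lay on either side of both Ctrl libraries. The log2 fold change was 0.07 (standard error 0.34, unadjusted p = 0.840 in edgeR), and -0.61 with the GC and length correction. Its longest coding transcript, at 12.584 kb, is the longest of the group. Mettl5 lies on the minus strand of chromosome 2 from 69871195 to 69886634. It had 28.3 and 16.7 CPM in Ctrl, against 39.3 and 25.3 CPM in A5-CKO. Its libraries of 1 genotype differed by 0.76 and 0.63 on the log2 scale, more than the log2 fold change of 0.52 (standard error 0.42, unadjusted p = 0.248 in edgeR). That value was 1.01 without Ctrl 1, 0.15 without Ctrl 2 and 0.16 without A5-CKO 1. Mettl5 shares 169 exon bases with Ssb on the opposite strand, and the counts of Ssb, 1497, 740, 2969 and 2024, put the libraries in the same order as those of Mettl5, which were 478, 287, 869 and 593. Whether shared bases carry part of this was not tested.

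The Mat2a mRNA, the known messenger target of METTL16, carries the recognition letters of the enzyme in hairpins after its stop codon, and these are shown because they are the sites through which METTL16 acts on methyl donor supply. In the GENCODE M21 transcript of Mat2a with the longest coding sequence (2804 bases, coding from 123 to 1307), a search of the sense strand for TACAGAGAA and TACAGAAAA found 6 matches, all of them past the coding sequence. They are printed 5′ to 3′ with the match in capitals and named by the transcript position of its first base.
Position 1350: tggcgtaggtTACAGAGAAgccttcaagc
Position 2134: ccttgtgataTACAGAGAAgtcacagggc
Position 2313: ctggtgtagcTACAGAGAAaccagcttcc
Position 2428: atggcgtaagTACAGAGAAgccatcacct
Position 2539: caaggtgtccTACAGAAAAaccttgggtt
Position 2647: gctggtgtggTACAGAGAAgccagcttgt

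Of 20668 coding genes, 7.74% held at least 1 such match in their longest coding transcript, and 1 gene held 6 or more. For Mat2a that transcript has 3387 bases and is not the one searched above. Mat2a, which encodes the widely expressed synthase of the methyl donor S-adenosylmethionine (SAM), had 4.49 and 5.18 CPM in Ctrl, against 6.47 and 2.14 CPM in A5-CKO. These values rest on 76, 89, 143 and 50 counts. The groups overlapped, and the log2 fold change was -0.17 (standard error 0.66, unadjusted p = 0.808 in edgeR). Mat1a, the paralog best known from liver, stood higher per transcript length, at 14.1 and 15.7 CPM per kb in Ctrl and at 14.3 and 17.7 in A5-CKO. The values were 1.33, 1.53, 1.91 and 0.631 CPM per kb for Mat2a in the same order of libraries.

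Per transcript length, the writer genes covered a wide range of levels. In CPM per kb of the longest coding transcript, averaged over the 4 libraries, the order was Mettl5 (28.3), Wtap (21.6), Mettl3 (11.8), Rbm15b (11.5), Virma (6.26), Cbll1 (5.26), Zc3h13 (4.97), Rbm15 (4.03), Mettl16 (2.13) and Mettl14 (1.48). The median of 15207 genes with a known length was 7.01, so 4 writer genes stood above it and 6 below. Wtap stood above 76.4% of these genes and Mettl14 above 22.0%. Neighbours in this order were often not separated by their spread. Mettl5 and Wtap crossed, with 17.3 to 40.6 CPM per kb for the one and 19.3 to 25.7 for the other, and Mettl3 and Rbm15b crossed in the same way. In Ctrl, Rbm15b was at 14.5 ± 4.18 (SD, n = 2) and Rbm15 at 2.33 ± 0.0172 CPM per kb. In A5-CKO they were at 8.58 ± 1.27 and 5.72 ± 1.83. The last 2 places, Mettl16 and Mettl14, were the same in each of the 4 libraries. The choice of length matters here. Per kb of all annotated exons joined, Rbm15b ranked 1 and Mettl3 ranked 7.

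**Figure D4:**
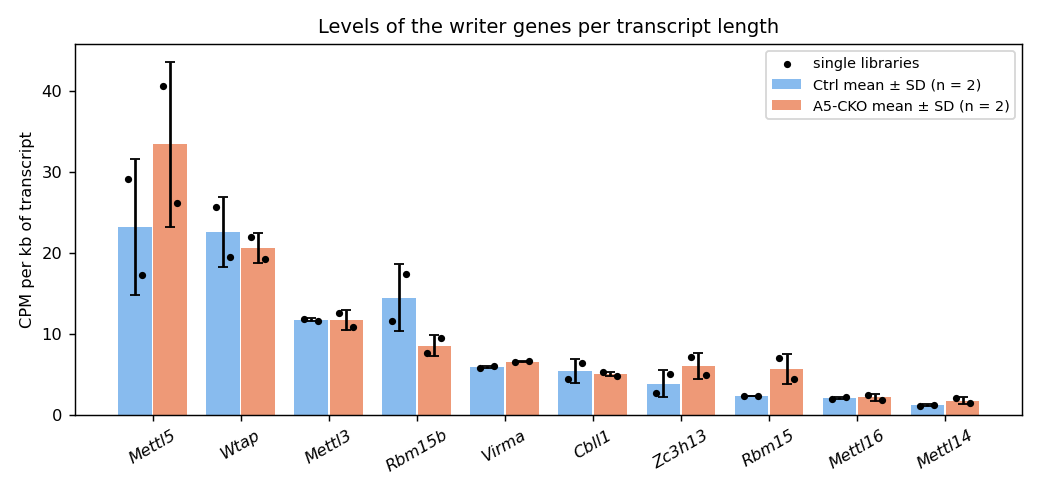
Level of each writer gene in CPM per kb of its longest coding transcript, as the mean of 2 libraries for each genotype (bars ± SD) with the single libraries as dots. Mettl5 and Wtap were highest and Mettl14 lowest, at 1.21 ± 0.107 in Ctrl, against 1.75 ± 0.438 in A5-CKO.

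The writer genes were also summed in each library. Their summed level was 325 and 360 CPM in Ctrl, against 369 and 317 CPM in A5-CKO, with the genotypes overlapping. A5-CKO 1 was the highest library for 6 of the 10 writer genes, where it was the highest for 27.8% of all genes tested, and A5-CKO 2 for 1 of the 10. Over 13670 coding genes, which are not independent, the genotype difference correlated with transcript length (Spearman's rho 0.36) and with GC content (rho -0.40), and the correction for both turned Mettl14, Virma and Mettl16 below 0, so that the writer median moved from 0.11 to -0.19. Over the 15207 genes with a known length, the median was -0.08 with the same correction. The correction left Rbm15 at 1.30 and Rbm15b at -0.75.

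Genes that work beside the writer were examined by list. Among the other enzymes that methylate adenosine at N6 and the METTL5 cofactor, all 4 separated by genotype, 2 above and 2 below, where 43.8% of all genes separated in either direction. Trmt112, the small protein that METTL5 needs for stability, had 86.0 and 63.1 CPM in Ctrl, against 39.1 and 39.1 CPM in A5-CKO, with a log2 fold change of -0.93 (standard error 0.30, unadjusted p = 0.0179, adjusted p = 0.528 in edgeR). Zcchc4, which methylates the RNA of the large ribosomal subunit, had 6.39 and 9.19 CPM in Ctrl, against 19.8 and 15.6 CPM in A5-CKO, with a log2 fold change of 1.18 (standard error 0.43, unadjusted p = 0.0292, adjusted p = 0.528 in edgeR). Pcif1, which marks the cap-adjacent adenosine, was at -0.54 and Mettl4 at 0.35, both with an unadjusted edgeR p above 0.05 (0.115 and 0.378). Of these 4 genes, 0 passed the adjusted threshold, and Trmt112 and Mettl5, the partners in one enzyme, thus had fitted differences of opposite sign, with the Mettl5 libraries overlapping.

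Of the 6 genes of SAM supply and recycling, 5 had a log2 fold change below 0 and 1 above, where 49.1% of all genes were above. Their median was -0.39, and none had an unadjusted edgeR p under 0.05. Mat2b, the regulatory subunit of the synthase, had 107 and 89.4 CPM in Ctrl, against 70.9 and 68.6 CPM in A5-CKO (log2 fold change -0.49, unadjusted p = 0.124 in edgeR). Ahcy, the hydrolase that clears the product of methylation, had 35.8 and 44.8 CPM in Ctrl, against 18.8 and 35.6 CPM in A5-CKO (-0.57, unadjusted p = 0.202 in edgeR). These 2 of the 6 had both A5-CKO libraries below both Ctrl libraries, where 23.5% of all genes did, Ahcy by a narrow margin. Ahcyl2, an AHCY-like gene, was at -0.67 with overlapping libraries.

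Of the pair linked to the writer through chromatin or family, Setd2, the histone H3 lysine methyltransferase whose mark recruits METTL14, had 37.6 and 47.0 CPM in Ctrl, against 94.4 and 68.8 CPM in A5-CKO. Its log2 fold change was 0.95 (standard error 0.31, unadjusted p = 0.0198, adjusted p = 0.528 in edgeR). Spen, the large relative of RBM15, overlapped between the genotypes and was at 0.17. Fto, the other m6A demethylase, had 64.5 and 123 CPM in Ctrl, against 50.3 and 59.1 CPM in A5-CKO (log2 fold change -0.78, unadjusted p = 0.0774 in edgeR), and it separated by genotype as Alkbh5 itself did.

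Of the 8 m6A readers, 7 had enough reads, and 5 of these had both A5-CKO libraries above both Ctrl libraries, where 20.3% of all genes did. The median log2 fold change of the 7 was 0.74. Ythdf3 was at 0.74, Ythdc1 at 0.87 and Ythdc2 at 0.98, with unadjusted edgeR p of 0.0417, 0.0469 and 0.0631 and adjusted p of 0.528. Igf2bp2 (0.72) and Igf2bp3 (0.93) also separated, with unadjusted edgeR p of 0.136 and 0.242. Igf2bp3 rests on few reads, with 9, 19, 36 and 35 counts and a counting error of up to 33.3%. Igf2bp1, with 0, 2, 8 and 48 counts, was at or under the detection limit in both Ctrl libraries and was not tested. Of the 12 genes for other methyl marks of RNA, 8 were above 0 and 4 below, where 49.1% of all genes were above. Their median was 0.15, and none had an unadjusted edgeR p under 0.05. Among them Alkbh8 (0.78), Nsun6 (0.80), Mettl6 (0.55), Wdr4 (0.20) and Mettl2 (0.15) lay higher in both A5-CKO libraries, where 20.3% of all genes did. Bud23, another partner of TRMT112, lay lower (-0.51), where 23.5% of all genes did. All medians stand beside -0.02 for all genes tested. The values of these related lists are not corrected for GC content and transcript length. Over coding genes the genotype difference correlated with both.

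**Figure D5:**
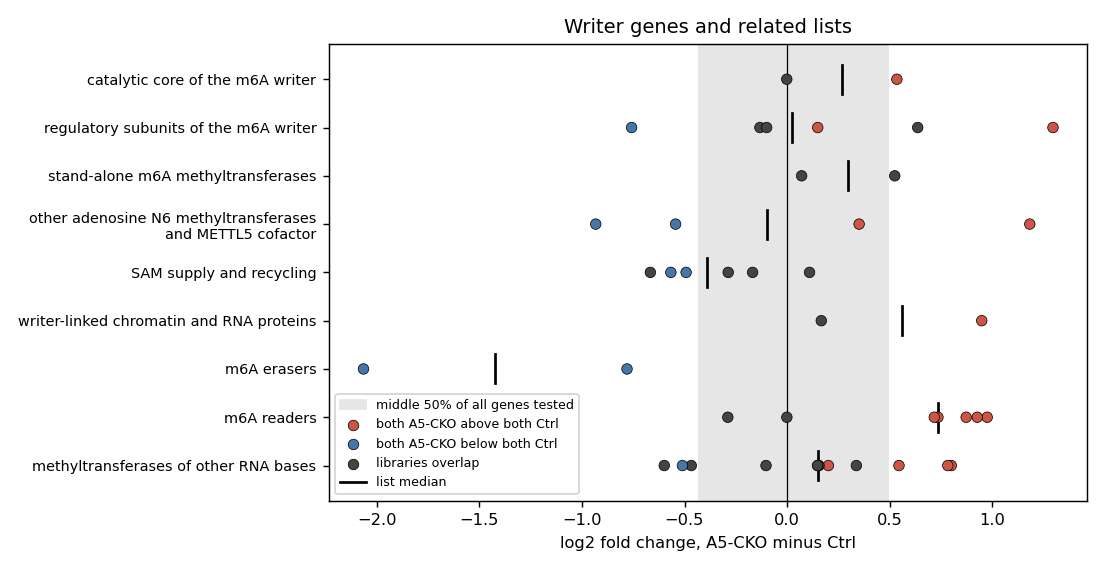
log2 fold change (A5-CKO minus Ctrl) of every tested gene in the writer groups and the related lists, 1 point for each gene, with list medians as short lines and the interquartile range of all genes tested, -0.43 to 0.49, in grey. Rbm15 (1.30) and Rbm15b (-0.76) lie at the ends of the regulatory subunits, on either side of a median of 0.02.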

How the data were processed

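RNA-seq of sorted AT2 cells gave 4 libraries, 2 of each genotype. The authors deposited raw read counts per gene, which they made by trimming with Trim Galore 0.6.10, aligning with HISAT2 2.2.1 to mm10 and counting with featureCounts 2.0.3, as the submitters' processing notes name these tools. The study describes removal of duplicates with sambamba for RNA-seq and m6A sequencing alike, and counting in the account of the latter. The strand setting is not given in the sources used here. Duplicate removal lowers the counts of highly expressed genes most.

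Genes were filtered with filterByExpr, scaled with TMM and tested with edgeR 4.0.16 (quasi-likelihood test, Benjamini-Hochberg adjustment over 16661 genes, threshold 0.05) in R 4.3.3, on the groups given by the labels. Replicate variation was estimated at 41.6% (common dispersion 0.173). DESeq2 1.42.0 and limma 3.58.1 (voom) were alternatives, with other scaling factors, filters, a replicate block, a spline correction (4 degrees of freedom in each library) for GC content and transcript length, and each library left out. The fit was tested on simulated data. Ratios of counts were compared on the log2 scale by exact permutation. Lengths came from GENCODE M21 (found for 91.3% of genes tested), and coordinates and start windows from RefSeq on GRCm38.p6.

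The writer genes and all lists were chosen with earlier results of these data known. All 10 writer genes are named, and of the other lists up to 3 genes with the smallest unadjusted p and any gene whose libraries did not overlap by genotype. Mat1a, Mat2a, Cldn5, Igf2bp1 and the genes that overlap a writer gene were named outside this rule after their values were seen.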

Additional observations from a re-analysis of the deposited data

How the results depend on the processing

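No writer gene had an adjusted p under 0.05 in any setting with edgeR, DESeq2 or limma. The median log2 fold change of the 10 (0.11) was 0.43 with total counts only, where the median of all genes moved from -0.02 to 0.30, and -0.19 with the GC and length correction, with or without the replicate block. The median of all genes was -0.08 with that correction and -0.09 with the block added. The writer median ranged from 0.01 to 0.16 when each library was left out. The number of writer genes with an unadjusted p under 0.05 (1) was 3 with that correction (7.17% of all genes), 2 with the correction and the block (2.98%), and 0 to 2 with each library left out (0 without A5-CKO 1, 4.3% of all genes; 2 without Ctrl 1, 9.25%), where the lone library is assumed to vary like the other genotype. Writer genes above Ctrl in both A5-CKO libraries numbered 7 with total counts only (34.8% of all genes), and those below 5 with the correction (24.8%). The log2 fold change of Mettl3 reversed to 0.043 with RLE factors, with DESeq2 on the same genes and with at least 10 counts in every library, to 0.026 with default DESeq2, 0.092 with upper-quartile factors, 0.31 with total counts, 0.096 with the correction and 0.088 with the correction and the block, and leaving out each library gave -0.13 to 0.072. Cbll1 reversed to 0.0026 with upper-quartile factors, 0.23 with total counts and 0.16 without Ctrl 2, and Wtap to 0.18 with total counts and 0.13 without Ctrl 1, in a range from -0.36 to 0.13. With the correction, Mettl14 reversed to -0.089, Virma to -0.29 and Mettl16 to -0.61, and with the block added to -0.10, -0.29 and -0.61. Mettl16 ranged from -0.15, without A5-CKO 1, to 0.22. The ratio of Wtap to Mettl3 ranged from -0.30 to 0.063, reversing without Ctrl 1, and that of Cbll1 to Mettl3 to 0.23 without Ctrl 2. The cause of these reversals was not tested.

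The labels number the replicates without saying that a number marks a shared batch. Over genes, the deviation of replicate 1 from its genotype mean (log2 scale) correlated at -0.363 between Ctrl and A5-CKO. The numbers were therefore not taken to pair the libraries. With the replicate block Rbm15 was 1.26 (unadjusted p = 0.0363 in edgeR), the count of writer genes with an unadjusted p under 0.05 was 1 and their median 0.10, while over all genes that count went from 1530 to 754. A crossed pairing, chosen after seeing the data, called 230 genes at an adjusted p under 0.05, 0 of them writer genes, and gave 2 writer genes with an unadjusted p under 0.05, as 15.5% of all genes had. Among the writer genes, Mettl14 and Rbm15 had the lowest counts, with counting errors of up to 8.51% and 7.63%.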
